A study of Mus musculus with 13 samples.

Results

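The Hox cluster genes encode homeodomain transcription factors that give cells along the body axis their positional identity. They were taken here as every probe set of the deposited array table whose annotation names exactly 1 gene and whose symbol is Hox, a cluster letter (a to d) and a paralogue number. The rule found 48 of 45037 non-control probe sets, for 33 of the 39 Hox genes in the RefSeq gene table. The other genes were not analysed here. Total RNA of mouse cells carrying a GFP reporter of Stella (the protein made by Dppa3) was hybridised to 13 single-colour Affymetrix arrays, 1 per sample. The groups were reporter-positive (Stella+ in the plots; reporter-negative, Stella-) cells of day 7 embryoid bodies (n = 4, the cells that the labels call in vitro primordial germ cells), reporter-negative cells of day 7 embryoid bodies (n = 2), unsorted embryonic stem cells, ESC (n = 2), reporter-positive ESC (n = 2) and reporter-negative ESC (n = 3). Every group, the unsorted ESC included, carries the Stella reporter. The sources used here give neither the mouse strain, nor the medium, nor the way the reporter was built, apart from reporter-positive ESC array 2, whose array file describes a BAC reporter. Whether replicates are separate cultures is not labelled, and a p-value here reflects array-to-array spread that could be technical.

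In the mouse embryo Hox genes lie in 4 clusters and are switched on in the order in which they lie there, low paralogue numbers first, as the posterior body is laid down. Retinoic acid, Wnt and Fgf signals and the Cdx factors open the clusters, Polycomb complexes keep them silent and Trithorax complexes keep them active. In embryonic stem cells the clusters are known to be held silent by Polycomb, and in early mouse germ cells the somatic Hox programme is known to be repressed. The members are ordered below by paralogue number: anterior genes (1 to 3) pattern the hindbrain and neck, central genes (4 to 8) the neck and trunk, and posterior genes (9 to 13) the lumbar and tail region, the limbs and the genital tract.

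Of the 33 genes, 19 matched an entry in the RefSeq promoter table (GRCm38.p6, 250 bases before to 50 bases after the start of the gene), and of the 9 genes with a probe set past the test in any comparison, 6 did. Promoters of Hoxb2, Hoxb3 and Hoxc6 are named only. The 4 shown here belong to genes past the test, 1 central and 3 posterior, and Rarb, a retinoic acid receptor of the same pathway list, is shown beside them because it passed in the same 2 comparisons as Hoxa9 and Hoxd13. Hoxb4 and Hoxa11 passed in 1. Capitals mark matches on either strand to the motifs searched. These were the TATA motif TATAAA, the CCAAT box, the GC box GGGCGG, the Pbx-Hox motif TGATNNAT, the Cdx motif TTTATG, the retinoid receptor motif AGGTCA with its variant AGTTCA, and the retinoic acid response element called DR5, in which a pair of receptor motifs of this kind, with further variants allowed (GGTTCA in Rarb), is spaced by 5 bases.
Hoxb4: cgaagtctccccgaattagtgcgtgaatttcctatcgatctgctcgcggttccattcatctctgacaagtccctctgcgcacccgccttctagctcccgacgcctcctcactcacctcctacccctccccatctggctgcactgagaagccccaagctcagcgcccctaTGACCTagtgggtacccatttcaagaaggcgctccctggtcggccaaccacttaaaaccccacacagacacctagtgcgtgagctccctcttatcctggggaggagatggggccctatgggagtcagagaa
Hoxa9: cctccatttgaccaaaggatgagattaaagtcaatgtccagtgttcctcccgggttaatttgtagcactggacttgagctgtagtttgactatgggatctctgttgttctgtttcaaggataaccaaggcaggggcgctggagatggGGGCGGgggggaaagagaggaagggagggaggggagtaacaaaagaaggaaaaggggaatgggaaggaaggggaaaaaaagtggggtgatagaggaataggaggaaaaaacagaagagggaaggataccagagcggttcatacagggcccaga
Hoxa11: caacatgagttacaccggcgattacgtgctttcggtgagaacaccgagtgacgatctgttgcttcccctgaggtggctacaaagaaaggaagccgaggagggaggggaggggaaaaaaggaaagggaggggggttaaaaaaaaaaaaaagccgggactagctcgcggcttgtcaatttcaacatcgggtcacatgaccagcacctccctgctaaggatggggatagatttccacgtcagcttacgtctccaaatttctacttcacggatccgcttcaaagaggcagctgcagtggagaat
Hoxd13: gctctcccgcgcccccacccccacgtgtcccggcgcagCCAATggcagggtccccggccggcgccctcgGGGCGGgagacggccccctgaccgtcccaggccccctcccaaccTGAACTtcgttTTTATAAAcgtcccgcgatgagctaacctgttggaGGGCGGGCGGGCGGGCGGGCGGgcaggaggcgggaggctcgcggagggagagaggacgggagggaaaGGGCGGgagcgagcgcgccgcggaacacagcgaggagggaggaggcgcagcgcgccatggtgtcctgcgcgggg
Rarb: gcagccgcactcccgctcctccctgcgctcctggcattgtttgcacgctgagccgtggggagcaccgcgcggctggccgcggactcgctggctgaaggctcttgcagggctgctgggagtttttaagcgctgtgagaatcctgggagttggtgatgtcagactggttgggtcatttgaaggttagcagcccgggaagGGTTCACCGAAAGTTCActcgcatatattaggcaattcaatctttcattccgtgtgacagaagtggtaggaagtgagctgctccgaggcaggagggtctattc

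The Hoxb4 window (chr11:96318017-96318316, plus strand) was 58% G or C with 14 CpG dinucleotides and 1 match to AGGTCA, read on the other strand. The Hoxa9 window (chr6:52227321-52227620, minus strand) was 49.7% G or C with 4 CpG and 1 GGGCGG, and the Hoxa11 window (chr6:52245761-52246060, minus strand) was 51% G or C with 15 CpG and held none of the motifs searched. The Hoxd13 window (chr2:74667975-74668274, plus strand) was 74.3% G or C with 37 CpG, 7 GGGCGG that partly overlap, 1 CCAAT, 2 overlapping TATAAA read on opposite strands and 1 AGTTCA. The Rarb window (chr14:16575427-16575726, minus strand) held 1 DR5, whose downstream part is the AGTTCA counted beside it. Over the 32851 promoters of the table, 13.6% held the TATA motif, 37.4% the CCAAT box, 35.7% the GC box, 8.85% the Pbx-Hox motif, 11.9% the Cdx motif, 27.7% a retinoid receptor motif and 0.0974% DR5. A match describes the letters and is not a binding site, and no match says only that these letters are not in this window.

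The sort went as labelled: the Dppa3 probe set had 807, 729, 1078 and 1138 in reporter-positive day 7 cells against 74.6 and 101 in reporter-negative day 7 cells, and 941 and 1473 in reporter-positive ESC against 139, 228 and 245 in reporter-negative ESC. All signals are the deposited MAS5 values after scaling each array to a common trimmed mean of 105.2. Reporter-positive day 7 arrays 3 and 4 stood apart from arrays 1 and 2. Their actin 3'/5' ratios, a measure of RNA integrity, were 4.89 and 5.16 against 2.04 and 2.17, and their summed signal of 9 endoderm markers was 543 and 631 against 8354 and 8475. In reporter-negative day 7 cells the actin ratio was 5.48 and 5.85, and on the 7 ESC arrays it lay between 1.12 and 1.23. The array median, which trimmed-mean scaling does not equalise, was 29.6 to 47.9 in reporter-positive and 42.3 to 45.1 in reporter-negative day 7 cells and 21.7 to 30.1 in ESC. All day 7 arrays were hybridised on another day than the ESC arrays, so culture and hybridisation day cannot be told apart.

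Most Hox probe sets lay near background. Here a probe set counts as near background on an array when its signal is at or below the median of all non-control probe sets of that array. By this limit 16 of the 48 never rose above background on any of the 13 arrays, 10 did so on exactly 1 array and 38 on fewer than 4 arrays. At least 10 arrays were above it for 5 probe sets: Hoxa5 1443803_x_at, Hoxa11 1420414_at, Hoxc6 1427361_at, Hoxc6 1427362_x_at and Hoxa9 1421579_at. Hoxa5, a patterning gene of the neck, lung and rib cage, is the 1 case above the median on every array, with 44.6 to 145, but its other probe set 1448926_at passed the median on 1 array only. Probe sets whose names end in _x, such as this one, are marked by the manufacturer as able to bind other transcripts.

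**Figure D1:**
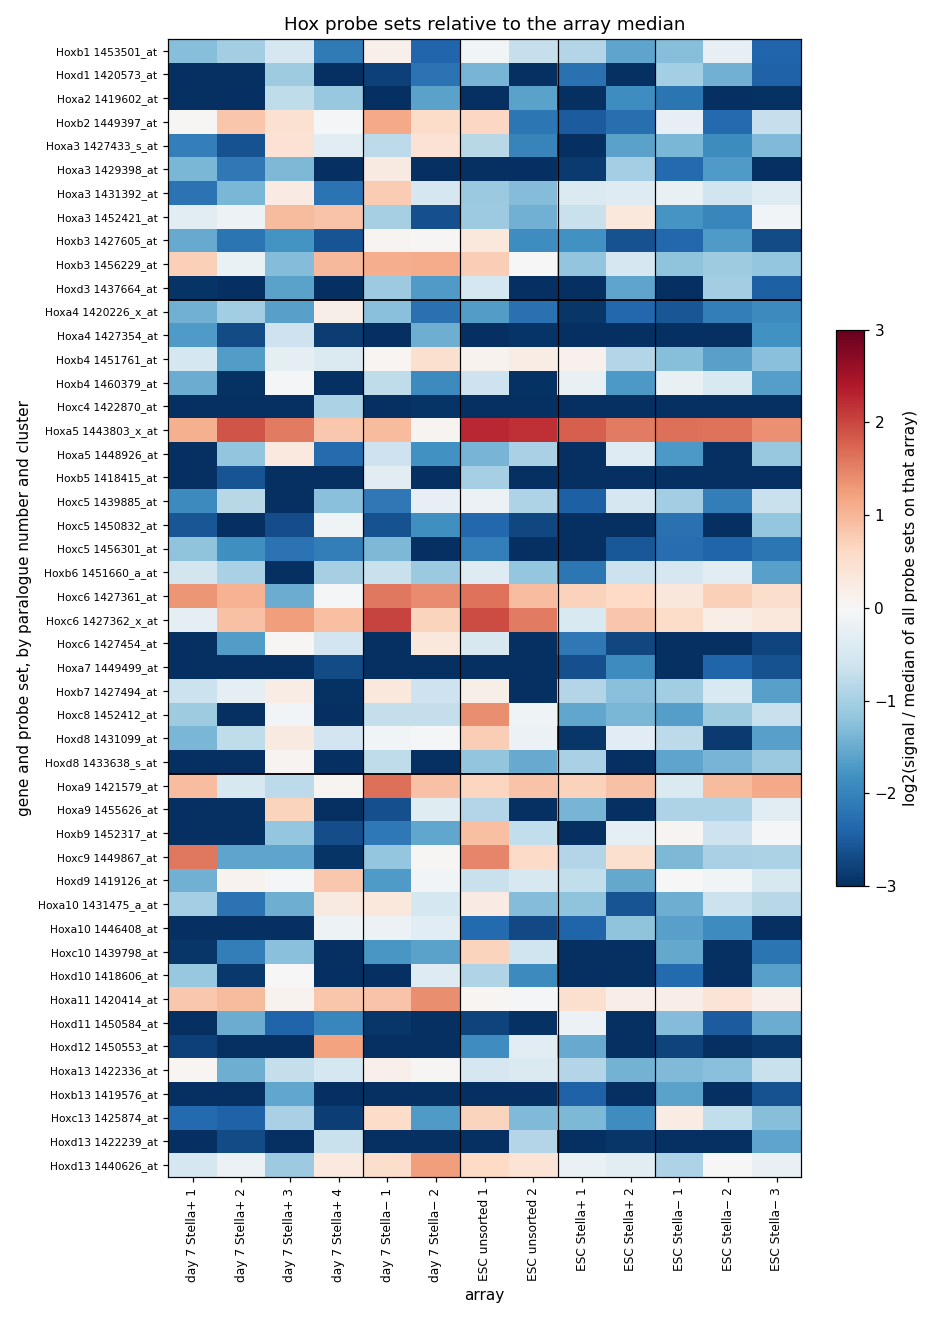
Signal of each of the 48 Hox probe sets (rows, by paralogue number and cluster, black lines between anterior, central and posterior) on each of the 13 arrays (columns), as log2 of the signal over the median of that array, with the colour scale cut at -3 and 3. Blue cells are below the array median; 16 rows are blue on every array and 1 row, Hoxa5 1443803_x_at, is red on every array.

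By class, 6 of 11 anterior, 7 of 20 central and 9 of 17 posterior probe sets were above the array median on at least 2 arrays, which was the condition for being tested. The 3 anterior probe sets that never passed the median were those of Hoxd1, Hoxa2 and Hoxd3. Among the central genes, none of the probe sets for Hoxc4, Hoxb5, Hoxc5, Hoxb6 and Hoxa7 did, and the only probe set of Hoxa7, a trunk gene, reached no more than 7.51. Of the posterior genes, Hoxd11 and Hoxb13 stayed below the median on every array. The 10 probe sets that passed on a single array did so on reporter-positive day 7 array 3 (4 probe sets, for Hoxa5, Hoxd8, Hoxa9 and Hoxd10) and array 4 (2, for Hoxa4 and Hoxd12), on reporter-negative day 7 array 1 (2, for Hoxb1 and Hoxa3) and on unsorted ESC array 1 (2, for Hoxc8 and Hoxc10). Hoxd12, a digit and genital gene, had 111 on reporter-positive day 7 array 4 and 1.13 to 23.2 on the other 12 arrays. That array has the lowest deposited signal of the series, and its 111 is a deposited value of 8.97 multiplied by 12.4.

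The number of Hox probe sets above the array median was 8, 6, 14 and 11 in reporter-positive day 7 cells, 17 and 14 in reporter-negative day 7 cells, 18 and 7 in unsorted ESC, 5 and 7 in reporter-positive ESC, and 6, 6 and 5 in reporter-negative ESC. Both reporter-negative day 7 arrays and unsorted ESC array 1 were high, and the sorted ESC arrays were uniformly low. Reporter-positive day 7 arrays 3 and 4 were higher than arrays 1 and 2, and array 3 equalled reporter-negative array 2 at 14. The highest signal relative to its array was 4.81 times the median, for Hoxa5 1443803_x_at on unsorted ESC array 1. Above the 75th percentile there were 0 to 3 Hox probe sets on any array. The summed signal of 14 fibroblast and feeder markers was highest on that same unsorted array, 10966, against 2906 on unsorted array 2, and its part in the Hox signal was not tested.

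**Figure D2:**
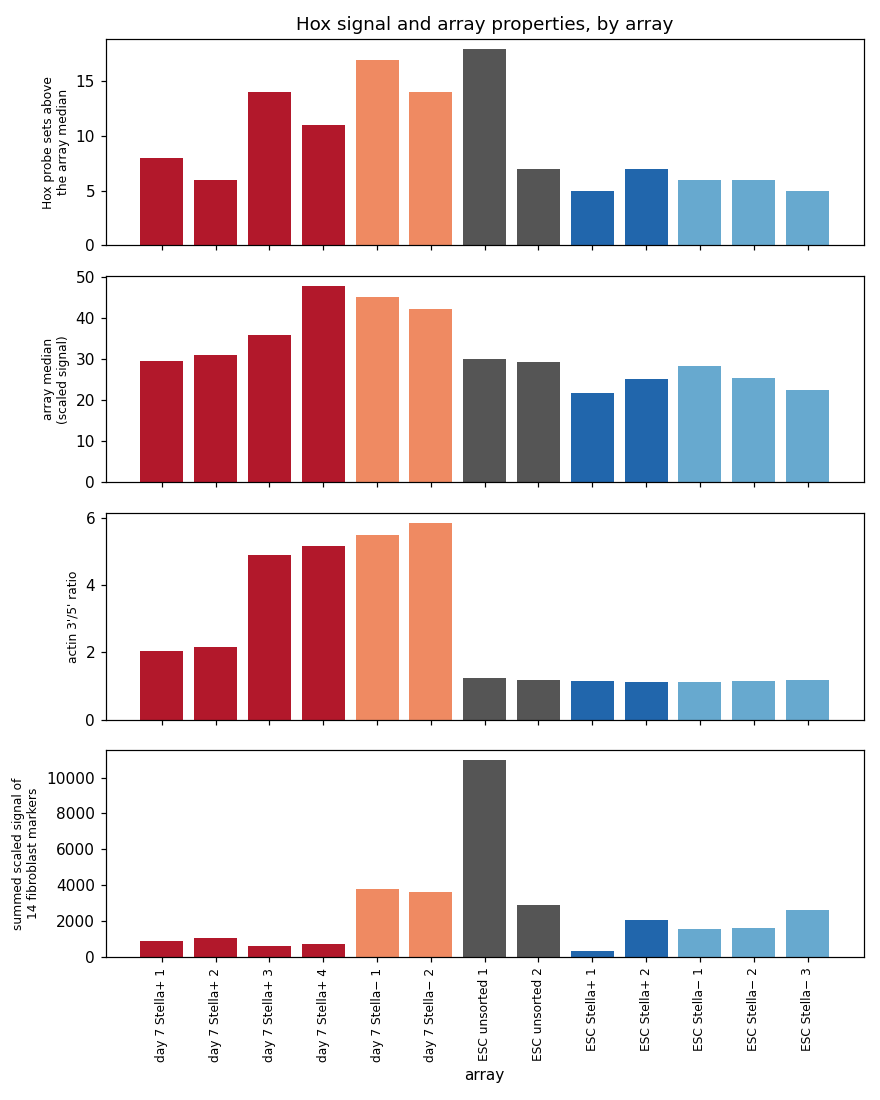
Bar panels share the 13 arrays on the horizontal axis: Hox probe sets above the array median (number of 48), the array median (scaled signal), the actin 3'/5' ratio, and the summed scaled signal of 14 fibroblast and feeder markers. The Hox bars reach 17 and 14 on the reporter-negative day 7 arrays, 14 on reporter-positive day 7 array 3 and 18 on unsorted ESC array 1. On that unsorted array the fibroblast bar is 10966. The actin ratio is above 2 on the day 7 arrays only.

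In day 7 embryoid bodies, Hox genes of all 3 classes had lower signal in reporter-positive than in reporter-negative cells, and none was higher past the test; under quantile normalization Hoxa3 1452421_at was higher (1.47, adjusted p = 0.0434) and Hoxb3 was no longer past it (adjusted p = 0.0642). Anterior Hoxb3, central Hoxc6 and posterior Hoxa9 and Hoxd13 fell, by 1.24 to 1.54 on the log2 scale. That is 4 of 22 tested probe sets (18.2%) against 7.87% of all 30023 tested probe sets lower in this comparison, and 0 of 22 against 8.54% higher. With all 48 probe sets tested, 2 of 48 (4.17%, Hoxb3 and Hoxa9) were lower against 5.26% of the table (0 of 48 higher against 5.03%), so the share is above the background only under the filter. Of the 22, 19 differences were negative and 3 positive, and their median was -0.76 against -0.12 over all tested probe sets (-0.47 over the 48 against -0.12 with no filter). Because 5 of the 22 passed the filter through day 7 arrays alone, these counts describe the tested probe sets and are no support for a shift. The called Hoxb3 1427605_at was above the array median only on both reporter-negative day 7 arrays and on unsorted ESC array 1. Without the reporter-negative day 7 arrays, where it is high, it would not have been tested. In bulk samples, fewer cells of a type and less RNA per cell cannot be told apart.

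Hoxb3, which patterns the hindbrain and neck, had 10.3, 6.77, 10.3 and 7.92 on its probe set 1427605_at in reporter-positive day 7 cells, against 47.7 and 43.7 in reporter-negative day 7 cells. All 4 reporter-positive arrays were below the array median and both reporter-negative arrays just above it, without overlap. The difference was -1.54 ± 0.46 (log2, limma standard error, Benjamini-Hochberg adjusted p = 0.0293). Its other probe set 1456229_at had 48.3, 27.1, 14.6 and 94.0 in reporter-positive against 95.6 and 91.3 in reporter-negative cells. There reporter-positive array 4 reached the reporter-negative level, the groups overlapped, and the difference of -1.08 ± 0.47 did not pass (adjusted p = 0.125).

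The hindbrain gene Hoxb2 had 30.2, 55.1, 48.9 and 46.5 in reporter-positive against 99.1 and 61.8 in reporter-negative day 7 cells. The groups did not overlap, and the difference of -0.70 ± 0.48 did not pass the test (adjusted p = 0.336). Hoxa3, which patterns the thymus, parathyroid and neck, gave probe sets that disagree. On 1431392_at it had 6.40, 12, 42.4 and 10.4 in reporter-positive against 76.6 and 29.7 in reporter-negative cells (-1.22 ± 0.48, adjusted p = 0.0926). On 1452421_at it had 23.7, 27.8, 69.5 and 87.1 in reporter-positive against 22.8 and 6.82 in reporter-negative cells (1.23 ± 0.51, adjusted p = 0.105). Its other tested probe set, 1427433_s_at, differed by -0.75 ± 0.56 (adjusted p = 0.385). Reporter-positive arrays 3 and 4 were the high ones on 1452421_at and on 1427433_s_at, so no direction can be given for Hoxa3.

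Hoxc6, a gene of the thoracic trunk and forelimb level, had 74.1, 64.4, 12.7 and 45.9 on 1427361_at in reporter-positive against 135 and 113 in reporter-negative day 7 cells. Reporter-positive array 3 was the low value, the groups did not overlap, and the difference was -1.32 ± 0.42 (adjusted p = 0.0426). On 1427362_x_at it had 24.3, 57.1, 85.5 and 90.1 in reporter-positive against 185 and 67.3 in reporter-negative cells (-0.83 ± 0.46, adjusted p = 0.224). On this probe set array 3 was among the high values and the groups overlapped, the reverse of its place on 1427361_at. The other Hoxc6 probe set, 1427454_at, was above the median on 2 arrays and differed by -0.20 ± 0.62 (adjusted p = 0.860). Hoxb4, known for expanding blood stem cells when overexpressed, had 20.4, 9.70, 29.2 and 35.5 in reporter-positive against 46.8 and 59.0 in reporter-negative cells. These values did not overlap, and the difference of -0.95 ± 0.40 did not pass the test (adjusted p = 0.119).

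Hoxa9, a posterior gene also used by blood progenitors, had 56.0, 22.2, 20.7 and 51.1 on 1421579_at in reporter-positive against 142 and 77.5 in reporter-negative day 7 cells. The groups did not overlap, reporter-negative array 1 was far above its replicate, and the difference was -1.36 ± 0.41 (adjusted p = 0.0322). Hoxd13, which patterns the digits and the genital tubercle, had 20.6, 27.3, 16.9 and 59.1 on 1440626_at in reporter-positive against 64.9 and 100.2 in reporter-negative cells. Reporter-positive array 4 came close to the lower reporter-negative value without reaching it, and the difference was -1.24 ± 0.40 (adjusted p = 0.0436). The other probe set of Hoxd13 stayed below the median on every array and that of Hoxa9 passed it on 1, so neither gene has a second measure. In the same pair of groups Hoxa13 differed by -0.77 ± 0.40 (adjusted p = 0.198), Hoxc13 by -1.15 ± 0.55 (adjusted p = 0.161) and Hoxa11 by -0.65 ± 0.33 (adjusted p = 0.184).

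**Figure D3:**
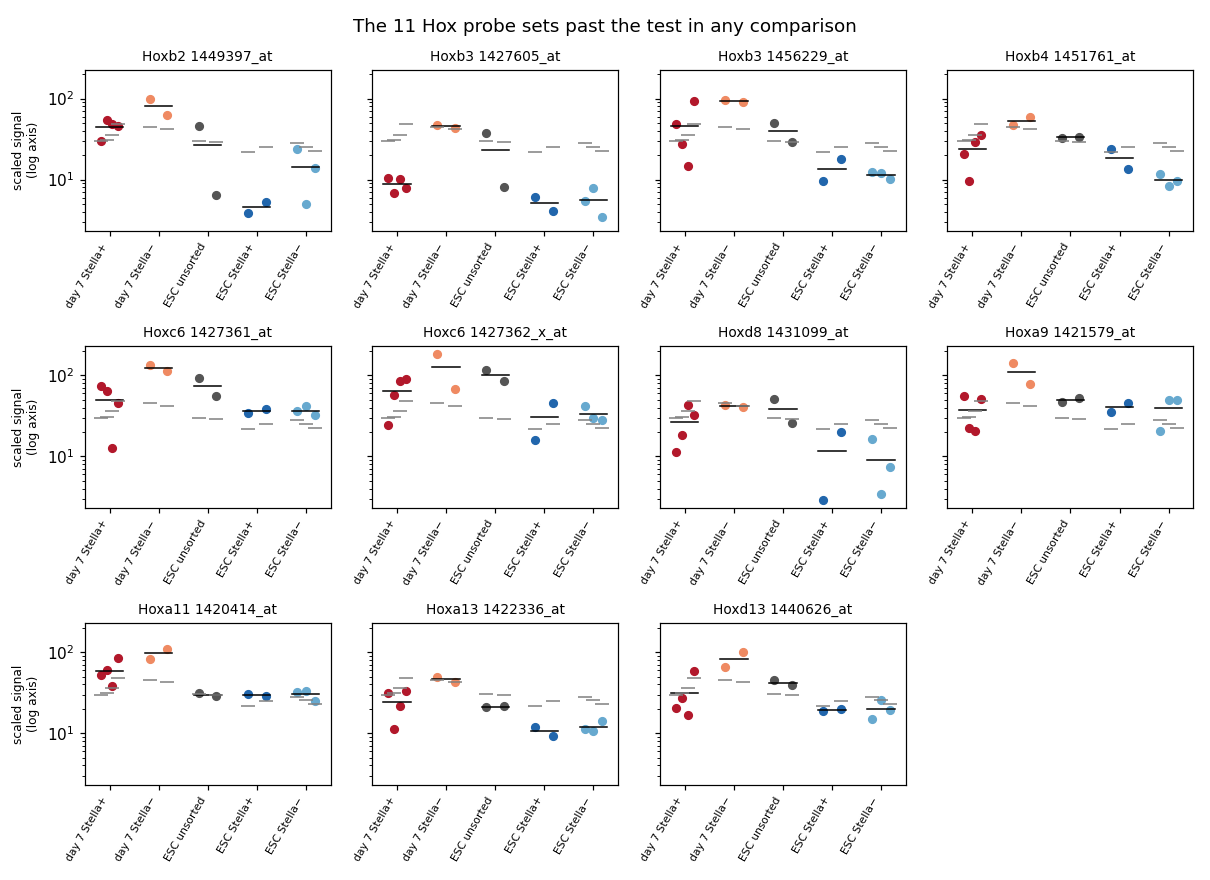
Scaled signal (log axis) of the 11 Hox probe sets past the test in any comparison, 1 panel each, with a point for each of the 13 arrays, a black line at the group mean and short grey lines at the median of each array. The reporter-negative day 7 points lie above the reporter-positive ones without overlap for Hoxb2, Hoxb3 1427605_at, Hoxb4, Hoxc6 1427361_at, Hoxa9, Hoxa13 and Hoxd13, and most points lie within a few fold of the grey lines.

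Across the 22 tested probe sets, 7 were lower and 1 was higher in reporter-positive day 7 cells without overlap between the groups, where 21.4% and 16.3% of all tested probe sets were. The 4 calls rested on both reporter-negative arrays: leaving out either one left 0 Hox probe sets past the test (2 without reporter-positive array 2 or array 3), with the lone array assumed to vary like the other groups. Only 1 hybridisation run held both groups, with 3 reporter-positive arrays and 1 reporter-negative array. With run as a block, which rests on those 4 arrays, the differences were -1.47 for Hoxb3 1427605_at (adjusted p = 0.149), -1.23 for Hoxc6 1427361_at (0.214), -1.11 for Hoxa9 (0.189) and -1.80 for Hoxd13 (0.0277), and the median of the 22 was -0.74. Scaling to the array median left 0 calls (all 4 kept their sign), and in that fit 2828 probe sets of the table were higher and 710 lower, against 2564 and 2362 here. Without reporter-positive arrays 3 and 4 there were 7 calls, all lower, of which Hoxb3 1427605_at, Hoxa9 and Hoxd13 were among the 4. Calls over the whole table rose as well, to 10.4% of all tested probe sets lower and 9.37% higher.

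Markers of several other cell types moved with this comparison. The summed signal of 9 neural markers did not: it was 197 to 576 in reporter-positive cells and 297 on both reporter-negative day 7 arrays. The summed signal of 13 streak and mesoderm markers was 456 to 615 in reporter-positive against 1982 and 2037 in reporter-negative day 7 cells, and that of 7 blood markers was 138 to 420 against 4194 and 4350. In reporter-negative cells the globins Hbb-y (2406 and 2470), Hbb-bh1 (1344 and 1387) and Hba-x (313 and 317) made up most of the blood sum. For Hba-a1, Gata1, Klf1 and Alas2 the groups overlapped. The sum of 14 fibroblast and feeder markers was 600 to 1034 in reporter-positive against 3606 and 3805 in reporter-negative cells. Acta2 alone had 134 to 534 against 1966 and 2026. Thy1, Tagln, Ccl2 and Fap overlapped between the groups. S100a4 was higher in reporter-positive cells (17.1 to 43.9 against 1.55 and 1.405), and the other markers of the list were lower without overlap. The sum of 9 endoderm markers was 543 to 8475 against 22411 and 24207. The summed signal of 9 germ cell markers, among them the sorted gene Dppa3, ran the other way. It was 3167 to 3616 in reporter-positive against 1053 and 1126 in reporter-negative cells. All 9 markers were above the array median in reporter-positive and 7 or 8 in reporter-negative cells. Dppa3 itself had 729 to 1138 against 74.6 and 101, a difference set by the sort. Prdm1 (112 to 162 against 173 and 151) and Dnd1 (100 to 149 against 102 and 37.5) overlapped between the groups, and the other markers were higher without overlap. The Gapdh 3'/5' ratio was 1.23 to 2.09 in reporter-positive against 3.03 and 3.18 in reporter-negative cells. With that ratio in the model none of the 4 differences passed, and that of Hoxd13 turned to 0.52, while Hoxa3 1452421_at was higher at 3.83 (adjusted p = 0.0402). The median over the tested Hox probe sets changed sign as well, to 0.41 against 0.13 over all tested probe sets. The part of the cell mixture in the Hox differences was not tested.

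Reporter-negative cells showed the broadest Hox difference between day 7 embryoid bodies and ESC. Past the test, 11 of the 22 tested probe sets were higher at day 7 (50%), for 9 genes from Hoxb2 to Hoxd13, against 18.5% of all tested probe sets, and 0 were lower against 15%. With no filter 12 of 48 were higher (25%) against 13.8%, and 0 lower against 9.29%. Of the 11 calls 10 were kept, and the additional ones were Hoxb5 (1.18) and a probe set of Hoxa10 (1.57). Since 5 of the 22, the called Hoxa13 among them, passed the filter through day 7 arrays alone, the share over the tested probe sets is a description and no support for a shift. The called Hoxb3 1427605_at would not have passed the filter without the reporter-negative day 7 arrays. The median of the 22 was 1.30 against 0.24 over all tested probe sets (0.63 over the 48 against 0.34 with no filter), and the largest difference was 2.24, for Hoxb3. Of the 22, 17 were higher at day 7 without overlap between groups, where 40.7% of all tested probe sets were, and 1, Hoxb9, was lower, where 25.8% were.

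Among the anterior genes, Hoxb2 had 99.1 and 61.8 in reporter-negative day 7 cells against 23.8, 5.03 and 14.1 in reporter-negative ESC (1.92 ± 0.50, adjusted p = 0.00815). Hoxb3 1456229_at had 95.6 and 91.3 at day 7 against 12.2, 12.1 and 10.1 in ESC (2.24 ± 0.49, adjusted p = 0.00259). Hoxb3 1427605_at had 47.7 and 43.7 at day 7 against 5.51, 7.84 and 3.50 in ESC (1.81 ± 0.48, adjusted p = 0.00875). Both Hoxb3 probe sets thus rose in the same fraction, and the ESC values lay below the array median on all 3 arrays. Of the Hoxa3 probe sets, 1427433_s_at differed by 1.36 ± 0.59 (adjusted p = 0.0831), 1431392_at by 0.99 ± 0.51 (0.137) and 1452421_at by 0.15 ± 0.53 (0.850), none past the test.

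Among the central genes, Hoxb4 had 46.8 and 59.0 in reporter-negative day 7 cells against 11.8, 8.22 and 9.49 in reporter-negative ESC (1.64 ± 0.43, adjusted p = 0.00774). Hoxc6 had 135 and 113 on 1427361_at at day 7 against 35.9, 41.6 and 32.8 in ESC (1.51 ± 0.45, adjusted p = 0.0163). On 1427362_x_at it had 185 and 67.3 at day 7 against 41.7, 29.4 and 28.2 in ESC (1.51 ± 0.48, adjusted p = 0.0238). For Hoxc6 the day 7 arrays of the second probe set differed more from each other than the lower of them did from the ESC arrays. Hoxd8, a trunk gene, had 42.6 and 41.2 at day 7 against 16.5, 3.45 and 7.37 in ESC (1.47 ± 0.51, adjusted p = 0.0352), and both its day 7 values were just below their array medians. Hoxa5 1443803_x_at, with 87.5 and 44.6 at day 7 against 88.9, 78.4 and 58.5 in ESC, did not differ past the test (-0.21 ± 0.32, adjusted p = 0.639). Under scaling to the array median that Hoxa5 difference was -0.88 and was the 1 call lower at day 7 (adjusted p = 0.0487).

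Among the posterior genes, Hoxa9 had 142 and 77.5 in reporter-negative day 7 cells against 20.8, 49.5 and 50 in reporter-negative ESC (1.26 ± 0.43, adjusted p = 0.0334). Hoxa11, a gene of the forearm, kidney and reproductive tract, had 82.1 and 111 at day 7 against 32.3, 33.7 and 25.2 in ESC (1.38 ± 0.35, adjusted p = 0.00617). Hoxa13, a gene of the digits and hindgut, had 50.1 and 43.2 at day 7 against 11.3, 10.7 and 14.2 in ESC (1.34 ± 0.42, adjusted p = 0.0210). These 3 genes lie at the same end of the Hoxa cluster, and in each the day 7 arrays were above the ESC arrays without overlap. Hoxd13 had 64.9 and 100.2 at day 7 against 14.8, 25.5 and 19.4 in ESC (1.60 ± 0.42, adjusted p = 0.00827), also without overlap. Hoxb9 ran the other way, with 10.3 and 14.3 at day 7 against 29.9, 16.5 and 22.3 in ESC, and its difference of -0.54 ± 0.55 did not pass (adjusted p = 0.465).

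**Figure D4:**
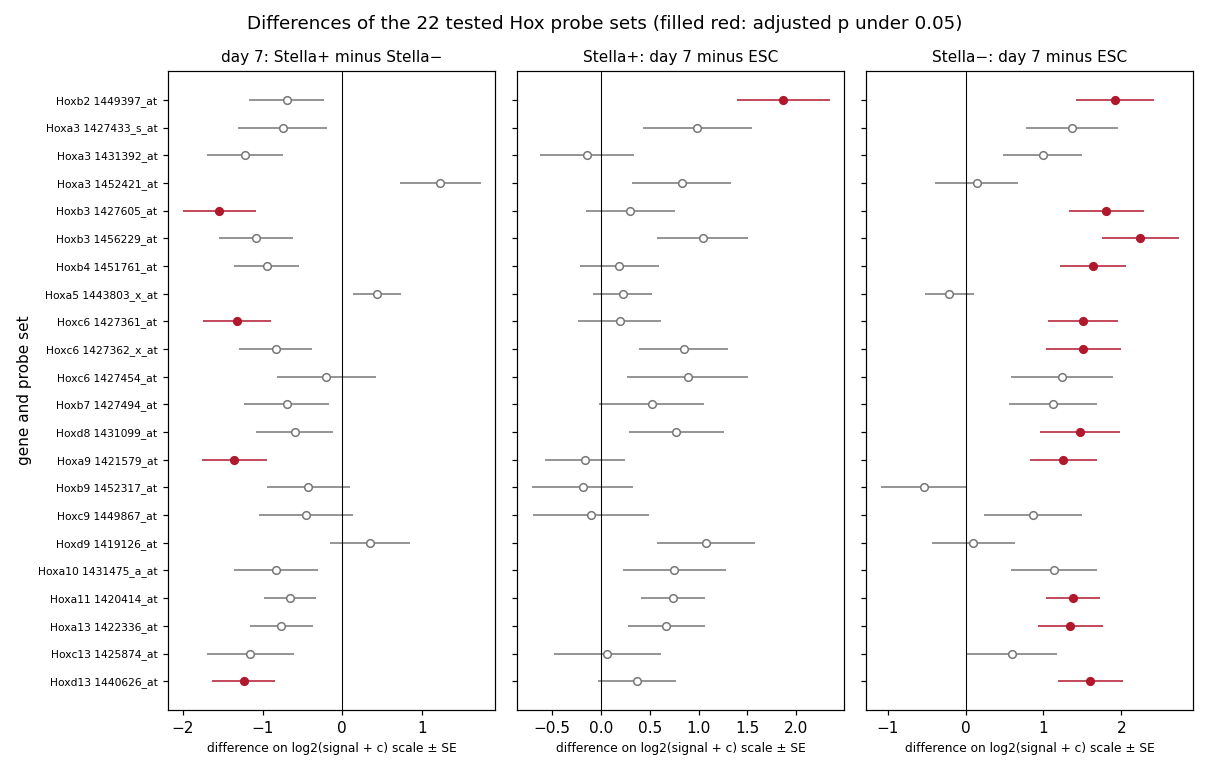
Differences (log2 of signal plus constant, points) with limma standard errors (bars) of the 22 tested Hox probe sets, in paralogue order down the page, for reporter-positive minus reporter-negative day 7 cells, and for day 7 minus ESC in each fraction; filled red points passed the test. The reporter-negative panel holds 11 red points between 1.26 and 2.24, the reporter-positive panel 1, Hoxb2 at 1.87, and the sort panel 4 between -1.54 and -1.24.

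The number past the test was 5 without either reporter-negative day 7 array, 5 with scaling to the array median (4 higher, 1 lower), 6 with quantile normalization and 0 with the Gapdh 3'/5' ratio in the model. Over the whole table, 5547 probe sets were higher and 4514 lower in this comparison, against 1507 and 8799 with scaling to the array median and 3967 and 5287 with quantile normalization. The median of all tested probe sets moved to -0.41 and -0.02 under these scalings, and that of the 22 Hox probe sets was 0.76 and 0.88, without a change of sign. Hoxb2, both Hoxb3 probe sets and Hoxb4 passed under both scalings. Under the Gapdh ratio the differences of Hoxb3 1456229_at (-0.45), Hoxb4 (-1.02), Hoxc6 1427362_x_at (-0.81), Hoxd8 (-0.76), Hoxa13 (-0.23) and Hoxd13 (-1.0) turned negative. The median of the 22 changed sign as well, to -0.34 against -0.13 over all tested probe sets. Summed marker signals were higher in reporter-negative day 7 cells than in reporter-negative ESC for fibroblast and feeder genes (3606 and 3805 against 1566 to 2636). So were those of blood genes (4194 and 4350 against 91.9 to 125, mostly Hbb-y and Hbb-bh1) and endoderm genes (22411 and 24207 against 171 to 542). In the fibroblast list, Acta2 alone had 1966 and 2026 at day 7 against 509, 570 and 1038 in ESC. Col1a2, Col3a1, Col6a1, Dcn, Lum, Postn and Vcam1 were also higher on both day 7 arrays than on every reporter-negative ESC array. Col1a1, Thy1, Tagln and S100a4 were lower on both. Streak and mesoderm markers had 1982 and 2037 at day 7 against 492 to 2669 in ESC.

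In reporter-positive cells, the comparison of day 7 with ESC gave 1 call. Hoxb2 had 30.2, 55.1, 48.9 and 46.5 in reporter-positive day 7 cells against 3.87 and 5.22 in reporter-positive ESC. All day 7 values were above both ESC values, and the Hoxb2 signal on both reporter-positive ESC arrays was far below the array median. The difference was 1.87 ± 0.48 (adjusted p = 0.0140). That is 1 of 22 tested probe sets (4.55%) against 8.35% of all tested probe sets higher at day 7, and 0 of 22 against 7.42% lower. Hoxb2 was thus about as different between day 7 and ESC in this fraction as in the reporter-negative one (1.92), and the test of that difference between the fractions gave -0.05 ± 0.69 (adjusted p = 0.985).

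The other anterior and central genes did not pass in reporter-positive cells. Hoxb3 1456229_at had 48.3, 27.1, 14.6 and 94.0 at day 7 against 9.60 and 17.7 in ESC, and the groups overlapped through day 7 array 3 (1.04 ± 0.47, adjusted p = 0.143). Hoxb3 1427605_at had 10.3, 6.77, 10.3 and 7.92 at day 7 against 6.16 and 4.14 in ESC (0.30 ± 0.46, adjusted p = 0.691), and Hoxb4 had 20.4, 9.70, 29.2 and 35.5 against 23.6 and 13.6 (0.19 ± 0.40, adjusted p = 0.789). Both were below the array median on every reporter-positive day 7 array. Hoxc6 1427361_at had 74.1, 64.4, 12.7 and 45.9 at day 7 against 34.8 and 38.2 in ESC, with overlap (0.19 ± 0.42, adjusted p = 0.796). Hoxd8 had 11.5, 18.2, 43.3 and 32.0 at day 7 against 2.86 and 20.3 in ESC (0.77 ± 0.48, adjusted p = 0.295).

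Of the posterior genes in reporter-positive cells, Hoxa11 had 51.9, 60.3, 38.5 and 84.7 at day 7 against 30.5 and 29.2 in ESC. Its groups did not overlap and all 4 day 7 values were above their array medians, but the difference of 0.74 ± 0.33 did not pass (adjusted p = 0.138). Hoxd9 differed by 1.07 ± 0.50 (adjusted p = 0.158), Hoxd13 by 0.37 ± 0.40 (0.564) and Hoxa9 by -0.17 ± 0.41 (0.816). Without overlap between groups, 3 of the 22 were higher at day 7, Hoxb2, Hoxb3 1427605_at and Hoxa11, where 22.1% of all tested probe sets were, and 0 were lower against 15.6%. Of the 22 differences 18 were positive, with a median of 0.59 against 0.16 over all tested probe sets; with no filter it was 0.37 over the 48 against 0.24, and the limit on probe sets admitted through day 7 arrays holds here too. Hoxb2 did not pass without either reporter-positive ESC array (adjusted p = 0.103 and 0.101), and 0 Hox probe sets passed with the Gapdh ratio in the model (Hoxb2 1.83, adjusted p = 0.147). Over the whole table, 2508 probe sets were higher and 2228 lower here, against 570 and 5320 with scaling to the array median, where the median of all was -0.33, and 1735 and 2200 with quantile normalization.

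Since reporter-positive and reporter-negative cells gave different numbers of calls, the difference between the fractions was tested directly as the interaction of sort and culture. No Hox probe set passed (0 of 22, against 0.536% of all tested probe sets higher and 0.213% lower, and 5 of 22 at an unadjusted p under 0.05). The smallest adjusted p was 0.277, for Hoxb4 (-1.45 ± 0.59). Hoxa9 (-1.42 ± 0.59, adjusted p = 0.295), Hoxb3 1427605_at (-1.51 ± 0.66, 0.323), Hoxc6 1427361_at (-1.32 ± 0.62, 0.356) and Hoxd13 (-1.23 ± 0.58, 0.360) were next. The count of 11 in one fraction and 1 in the other is therefore not shown to be a difference between the fractions. The 2 day 7 groups enter both the sort and the culture comparisons, so these are not independent of each other.

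Within ESC the reporter sort separated no Hox probe set: 0 of 22 passed in either direction by limma, against 0.00333% of all tested probe sets higher and 0% lower, and 0 of 22 had an unadjusted p under 0.05. On each sorted ESC array 5 to 7 of the 48 Hox probe sets were above the array median, among them Hoxa5 1443803_x_at, Hoxc6 1427361_at and Hoxa11 on all 5 arrays. Hoxa13 had 11.9 and 9.37 in reporter-positive against 11.3, 10.7 and 14.2 in reporter-negative ESC, and Hoxd13 had 18.8 and 20.0 against 14.8, 25.5 and 19.4. For both genes the values of the fractions were intermixed. Hoxb9 had the largest difference, with 1.31 and 20.9 in reporter-positive against 29.9, 16.5 and 22.3 in reporter-negative ESC (-0.77 ± 0.55, unadjusted p = 0.176). The median of the 22 was -0.02 against -0.04 over all tested probe sets, and 0.04 or 0.05 with scaling to the array median or quantile normalization. Without overlap, 2 were higher and 3 lower in reporter-positive ESC, where 9.05% and 12.7% of all tested probe sets were.

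Unsorted ESC did not differ past the test from the mean of the sorted ESC groups for any Hox probe set (0 of 22 by limma, against 2.94% of all tested probe sets higher and 2.58% lower), and 6 of 22 had an unadjusted p under 0.05. The nearest was Hoxc6 1427362_x_at, with 118 and 86.4 in unsorted ESC against 15.9 and 45.1 in reporter-positive and 41.7, 29.4 and 28.2 in reporter-negative ESC (1.45 ± 0.45, adjusted p = 0.0664). Hoxa5 1443803_x_at had 145 and 134 in unsorted ESC against 58.5 to 88.9 on the 5 sorted arrays (0.82 ± 0.29, adjusted p = 0.120). Hoxd8 had 50.5 and 26.0 in unsorted ESC against 2.86 to 20.3 on the sorted arrays (1.27 ± 0.47, adjusted p = 0.130), and Hoxc9 had 83.3 and 43.5 against 11 to 35.1 (1.41 ± 0.58, adjusted p = 0.171). All 4 were higher on both unsorted arrays than on every sorted one. In all, 10 of the 22 were higher and 1 lower without overlap, where 19% and 13.3% of all tested probe sets were, and the median of the 22 was 0.70 against 0.08. Without unsorted array 1 that median was 0.25, and without unsorted array 2 it was 1.07. Fitted on the 7 ESC arrays alone, 4 passed: Hoxc6 1427362_x_at (adjusted p = 0.0215), Hoxc9 (0.0288), Hoxb3 1456229_at (0.0390) and Hoxa5 1443803_x_at (0.0449). Calls over the whole table rose as well in that fit, to 5.38% of all tested probe sets higher and 4.32% lower. With no filter 1 of 48 passed, the otherwise untested Hoxc10 (1.63), against 1.47% of all probe sets higher and 1.29% lower. The 14 fibroblast and feeder markers summed to 10966 and 2906 in unsorted ESC against 326 to 2636 in sorted ESC, with 13 of 14 above the array median in unsorted ESC and 3 to 11 in sorted ESC. Unsorted ESC were also hybridised in a run of their own, so run and group cannot be told apart. Over the whole table, 884 probe sets were higher and 776 lower, against 310 and 982 with scaling to the array median.

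The homeodomain cofactors that bind DNA together with Hox proteins (Pbx, Meis and Pknox, the TALE family) were measured well above background for several members. Meis2, a cofactor of anterior Hox proteins and of retinoic acid responses in the limb, had 92.5, 148, 123 and 55.1 in reporter-positive day 7 cells against 392 and 366 in reporter-negative day 7 cells. It was the 1 of 7 tested cofactors to fall in the day 7 sort (-1.83 ± 0.35, adjusted p = 0.00229), with 0 higher, where 7.87% of all tested probe sets were lower and 8.54% higher. Against ESC of the same fraction, 3 of 7 were higher at day 7 in both fractions, where 8.35% of all tested probe sets were in reporter-positive and 18.5% in reporter-negative cells: Meis1 (1.82 and 1.95 in reporter-positive and reporter-negative cells), Meis2 (1.74 and 3.21) and Pbx3 (1.02 and 1.57). Meis1 had 37.7, 50.8, 68.5 and 118 in reporter-positive and 71.8 and 111 in reporter-negative day 7 cells against 8.68 to 18.4 in sorted ESC. The sort at day 7 did not pass for Meis1 (-0.43 ± 0.39, adjusted p = 0.477) or Pbx3 (-0.76 ± 0.31, adjusted p = 0.0987). In reporter-positive cells Pbx3 lost its call in 8 of 18 alternatives, among them scaling to the array median (0.47). The Meis1 difference in reporter-negative cells turned to -1.47 with the Gapdh ratio in the model.

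Among 21 tested regulators and neighbours of the Hox clusters, 2 were lower and 2 higher in reporter-positive than in reporter-negative day 7 cells, near the shares of all tested probe sets (7.87% lower and 8.54% higher). Wnt5a, a Wnt ligand of posterior growth, fell by 1.95 ± 0.57 (adjusted p = 0.0279, lost in 9 of 18 alternatives), and Hoxb5os, an antisense transcript in the Hoxb cluster, fell by 1.51 ± 0.43 (adjusted p = 0.0237). Hoxb5os had 19.4, 21.2, 14.1 and 22.7 in reporter-positive against 57.5 and 94.1 in reporter-negative day 7 cells, and 1.49 to 1.74 in reporter-negative ESC. It was above the array median on the reporter-negative day 7 arrays only, as Hoxb3 1427605_at was among the day 7 arrays. The higher 2 were Atp5g1, a mitochondrial ATP synthase subunit (1.70 ± 0.27, adjusted p = 0.000647), and Snx10, a sorting nexin (0.83 ± 0.19, adjusted p = 0.00682), genes listed for where they lie. Cdx1 and Cdx4, direct activators of Hox clusters, were below the array median on all 13 arrays, and Cdx2 did not pass (-0.91 ± 0.54, adjusted p = 0.257). In reporter-negative cells 2 were higher at day 7 than in ESC, Hoxb5os (2.80) and Calcoco1 (0.85), and 5 lower, Atp5g1 (-1.45), Fgf8 (-1.63), Mtx2 (-0.73), Skap2 (-0.83) and Snx10 (-0.98), against 18.5% and 15% of all tested probe sets. Fgf8 kept its call in 6 of 16 alternatives. No gene of this list passed in reporter-positive cells (0 of 21 by limma), and in unsorted ESC, with 233 and 64.2 against 0.843 to 36.2 on the sorted arrays, Wnt5a was higher (2.33, adjusted p = 0.0220). Without unsorted array 1 the Wnt5a difference was 1.47 and did not pass (adjusted p = 0.431).

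Of 16 tested genes of the retinoid pathway, 3 fell and 1 rose in reporter-positive against reporter-negative day 7 cells, where 7.87% of all tested probe sets were lower and 8.54% higher. Rarb, whose promoter with its DR5 element is printed above, had 53.4, 45.1, 35.8 and 5.71 in reporter-positive against 165 and 125 in reporter-negative day 7 cells (-1.93 ± 0.47, adjusted p = 0.0107). Rdh10, which makes retinal, had 108, 88.9, 81.9 and 117 against 282 and 312 (-1.50 ± 0.28, adjusted p = 0.00224). Both genes were lower on every reporter-positive array. Rbp4, the retinol carrier made by yolk sac endoderm and liver, fell by 3.46 ± 0.86 (adjusted p = 0.0116), and within reporter-positive cells it had 1413 and 1792 on arrays 1 and 2 and 84.0 and 108 on arrays 3 and 4. Stra8, a retinoic acid responsive gene of germ cells, rose by 1.95 ± 0.40 (adjusted p = 0.00352). Against ESC, reporter-negative cells had Rarb (2.47), Rbp4 (6.47), Rdh10 (2.03) and Stra8 (1.11) higher and Crabp1 (-1.92) and Rara (-2.02) lower. Stra8 kept this call in only 3 of 16 alternatives, and lost it without any 1 of the arrays compared. In reporter-positive cells Rbp4 (3.43), Rdh10 (1.13) and Stra8 (3.11) were higher and Rara (-1.0, lost in 9 of 18 alternatives) lower at day 7. Rarb did not pass there (0.94 ± 0.47, adjusted p = 0.186), and in unsorted ESC Stra8 was lower than in sorted ESC (-1.46), a call kept in 8 of 18 alternatives and lost without either unsorted array.

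Polycomb genes, which encode the repressors of Hox clusters, had higher signal in reporter-positive than in reporter-negative day 7 cells for 5 of 21 tested (Suz12 1.23, Mtf2 1.12, Eed 0.86, Phc1 0.86 and Cbx7 0.84), and lower for 0, where 8.54% of all tested probe sets were higher and 7.87% lower. Suz12, a core subunit of the complex that methylates histone H3 at lysine 27, had 2643, 2002, 3226 and 3841 in reporter-positive against 1282 and 1145 in reporter-negative cells. Among 11 Trithorax genes and histone demethylases, 5 were higher (Ash2l 1.44, Dpy30 1.08, Kdm6a 0.95, Rbbp5 0.82 and Wdr5 0.70) and Kmt2d was lower (-0.82). Ash2l, a subunit of the complexes that keep Hox genes active, had 991, 1131, 1093 and 1031 in reporter-positive against 358 and 412 in reporter-negative cells. Members of both the repressing and the activating families were thus higher in the same cells. With the Gapdh ratio in the model Suz12 alone of these 11 genes kept its call, and the Eed and Phc1 differences turned to -0.21 and -0.67. With run as a block Suz12 lost it. Over 18 alternatives, calls were kept in 10 for Eed, in 13 for Phc1, Kmt2d and Wdr5, and in 14 for Kdm6a. They were kept in 15 for Suz12, Cbx7 and Rbbp5, in 16 for Mtf2 and Dpy30, and in 17 for Ash2l. Against ESC, 6 Polycomb genes were higher and 1 lower in reporter-positive day 7 cells, and 5 higher and 6 lower in reporter-negative ones, against 8.35% and 7.42% of all tested probe sets in reporter-positive and 18.5% and 15% in reporter-negative cells. For the Trithorax list these counts were 2 and 2 in reporter-positive and 2 and 3 in reporter-negative cells. No gene of these 5 lists passed in the ESC sort (0 by limma).

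**Figure D5:**
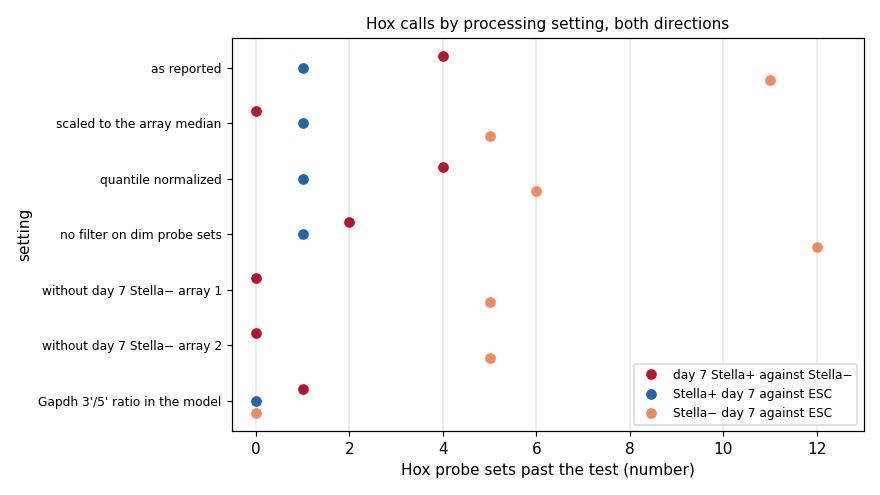
Number of Hox probe sets past the test, in both directions (horizontal axis), under 7 processing settings (vertical axis), with a point per comparison that uses those arrays. The day 7 sort holds 4 as reported and 0 without either reporter-negative day 7 array, and the reporter-negative comparison of day 7 with ESC runs between 0 and 12.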

How the data were processed

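Total RNA of 13 samples was hybridised to Affymetrix mouse arrays, and the authors deposited 1 intensity per probe set and array, made with MAS5 per the submitters' processing notes, with version and scaling target not given in the sources used here. Annotation gave 1 symbol for 34945 of 45037 non-control probe sets, several for 932 and none for 9160. Each array was scaled to a common 2% trimmed mean of 105.2, since the deposited trimmed means spanned 8.48 to 230.0. Log2(signal + 10.5) was fitted with limma 3.58.1 (R 4.3.3) over the 5 groups of all 13 arrays, for 30023 probe sets above the array median on at least 2 arrays. Because of the added 10.5, folds understate changes of dim probe sets. The 6 comparisons were tested with Benjamini-Hochberg adjustment at 0.05. The number of arrays limits the precision. The code was tested on simulated data. Every Hox probe set past the test in any comparison is given with its values by array, and the other tested ones by examples and ranges; of the 5 related lists, called genes and a few others are named, Polycomb and Trithorax genes outside the day 7 sort as counts. Members and lists were chosen with earlier results of these data known. Alternatives covered scaling, constant, filter, arrays used, prior, run, replicate number and single arrays; the Gapdh ratio and the removal of reporter-positive day 7 arrays 3 and 4 were added after seeing the data. Numbers in the titles did not pair the samples: correlations of deviations over 21 pairs ran between -0.13 and 0.07.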

Additional observations from a re-analysis of the deposited data

Results flagged for a closer look

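Hoxc9 (1449867_at) had 88.6 on reporter-positive day 7 array 1 and 6.28 to 12 on the other 3 arrays of that group, so that its gap to the nearest array took 0.836 of the group's range, above Dixon's critical value for 4 samples. Hoxc13 (1425874_at) had 18.3 on reporter-positive day 7 array 3 and 5.78 to 6.74 on the others, a gap of 0.900 of the range, although 18.3 is itself below the median of that array. The 22 tested probe sets were examined in this group of 4, and chance gives about 1 such value in 20 groups.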

How the results depend on the processing

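In the day 7 sort, the 4 Hox calls became 0 with scaling to the array median or a fit on the compared arrays alone, 1 with a 5 times smaller constant, with run as a block or with the Gapdh 3'/5' ratio in the model, 2 with no filter, and 7 without reporter-positive arrays 3 and 4; leaving out 1 array gave 0 to 6. In reporter-positive cells, the 1 call between day 7 and ESC became 0 with the Gapdh ratio, and 0 to 2 without 1 array: Hoxd9 (1.43) joined without day 7 array 1 and Hoxb3 1456229_at (1.36) without array 3. In reporter-negative cells, the 11 calls became 5 with scaling to the array median, 6 with quantile normalization and 0 with the Gapdh ratio; leaving out 1 array gave 5 to 9, with 5 without either day 7 array. The interaction gained 1 call (Hoxd9, 3.92) with the Gapdh ratio. Unsorted against sorted ESC gained 1 call with no filter, 4 on the ESC arrays alone, 1 with the replicate block (Hoxc6 1427362_x_at, 1.52) and 1 with the Gapdh ratio. Of all tested probe sets, 5.38% were higher on the ESC arrays alone, 4.92% with the replicate block and 5.23% with the Gapdh ratio. The ESC sort had 0 calls under every alternative run. The replicate block gave 3 calls in the day 7 sort and 13 in reporter-negative cells. In the sort 8.53% of all tested probe sets were then higher and 7.53% lower. In reporter-negative cells 22.4% were higher and 16.8% lower. The replicate block used the title numbers, which equal the number in the array file on 1 of 12 arrays. Pairs by the array file numbers were not examined, so whether sorted fractions share a source cannot be told. The Gapdh ratio differs between the groups, and with it these differences changed sign: in the day 7 sort Hoxd13 (0.52), Eed (-0.21) and Phc1 (-0.67); in reporter-negative cells Hoxb3 1456229_at (-0.45), Hoxb4 (-1.02), Hoxc6 1427362_x_at (-0.81), Hoxd8 (-0.76), Hoxa13 (-0.23), Hoxd13 (-1.0), Meis1 (-1.47), Mtx2 (0.74), Skap2 (1.04), Calcoco1 (-0.33) and Stra8 (-2.80); the cause was not tested. The mean number of Hox probe sets above the 60th and 75th percentile was 5.5 and 0.5 in reporter-positive and 8.5 and 2 in reporter-negative day 7 cells, 7 and 1.5 in unsorted ESC, and 2 and 0 in both sorted ESC groups. Of 262 alternatives for the 16 named Hox differences, 173 kept direction and call, 82 kept the direction only and 7 reversed; for 45 related differences 613 of 776 kept both. Signal near background limits most Hox probe sets, and groups of 2 arrays limit every comparison.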

Other observations

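Beside the 48 probe sets, 8 are annotated to an antisense Hox transcript or to a pair of Hox genes. The probe set shared by Hoxb8 and Hoxb7 had 20.2, 14.2, 67.8 and 71.2 in reporter-positive day 7 cells, 49.2 and 55.5 in reporter-negative day 7 cells, 45.4 and 31.7 in unsorted ESC, 9.38 and 2.18 in reporter-positive ESC and 7.59, 13.8 and 5.74 in reporter-negative ESC. It was above the array median on 6 arrays, and reporter-positive day 7 arrays 3 and 4 were the highest. Hoxd3os1 by its brighter probe set was above the array median on 3 arrays, with 24.2, 10.6, 39.4 and 41.1 in reporter-positive and 62.8 and 37.1 in reporter-negative day 7 cells. Besides Hoxb5os, described above, the other 5 were above it on 0 or 1 array.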
